A study of Mus musculus with 24 samples.

Results

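Primary leukaemias labelled LAP B-ALL (4 tumours) were compared with primary leukaemias labelled LAP preB-ALL (4 tumours), 8 of the 24 mouse samples measured on expression arrays. By their labels both groups came from LAP transgenic mice, where LAP (liver-enriched activator protein) is a form of C/EBPβ, the product of Cebpb, that activates transcription. The groups were formed by the tumour titles alone, and no measured value entered the choice. The labels give no Blnk knockout for these 8 tumours, whereas the other 8 tumours were 3 LAP/Blnk preB-ALL (LAP transgene and Blnk knockout) and 5 Blnk preB-ALL (Blnk knockout without the transgene). The remaining 8 samples were of the cell line BKO408 and were not used. The sources used here do not give the promoter of the transgene, the organ sampled, its share of leukaemic cells, or the strain, age and sex of the mice. They do not say how a tumour was classed as B-ALL or preB-ALL either. The labels do not say that each tumour came from a separate animal, so the p-values reflect only how these samples vary, which may be technical.

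A pre-B cell carries a pre-B receptor, in which the immunoglobulin heavy chain pairs with a surrogate light chain made of VpreB and λ5 type proteins, and it signals through CD79A, CD79B, SYK and the adaptor BLNK. Once a light chain gene has been rearranged by the RAG recombinase, the surrogate chain is lost and the cell carries a B-cell receptor, followed by markers of immature and mature B cells such as CD20 and MHC class II. The surrogate light chain and mature B-cell genes are the usual marks of these stages. C/EBPβ is a factor of myeloid cells that, in excess, can turn B cells towards macrophages.

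All values are log2 ratios of a gene to its median over the 16 tumours, as deposited, so 1 unit is a 2-fold difference and 0 is the middle of the tumours and not absence. The base of the logarithm is not stated and was taken as 2. The deposited values hold no level, so 2 genes cannot be compared in abundance. Of 17097 genes, 0 passed the test between LAP B-ALL and LAP preB-ALL at an adjusted p of 0.05 (0.00%; limma over all 16 tumours with Benjamini-Hochberg adjustment), and the smallest adjusted p was 0.125, for Pml, a nuclear body protein. A difference is the mean of the 4 LAP B-ALL minus the mean of the 4 LAP preB-ALL, given with its standard error (SE). An unadjusted p under 0.05 was reached by 1884 genes (11.0%), 933 higher in LAP B-ALL (5.46%) and 951 lower (5.56%). The median difference over all genes was -0.03, and 43.9% of the genes had a positive one.

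Both tumours numbered 4 went against their group. Across the 8548 genes of larger spread, LAP B-ALL 1 to 3 correlated with each other at r of 0.83 to 0.87, and the tumour labelled LAP preB-ALL 4 correlated with these 3 at 0.83 to 0.87 too. The tumour labelled LAP preB-ALL 4 reached -0.16 to 0.32 with LAP preB-ALL 1 to 3, and the tumour labelled LAP B-ALL 4 reached -0.09 to -0.05 with LAP B-ALL 1 to 3 and -0.14 to -0.06 with the 4 LAP preB-ALL. LAP preB-ALL 1 to 3 were a loose group, with r of -0.03 to 0.35. Among them LAP preB-ALL 2 reached 0.30 to 0.41 with LAP B-ALL 1 to 3, above its r of -0.03 and -0.01 with LAP preB-ALL 1 and 3, and it was kept in every fit that leaves out both tumours numbered 4. These correlations are across genes of ratios that share 1 baseline and describe the tumours without a test. Cebpb, the source of the transgene, was at 0.29, 0.90, 0.14 and -3.11 in LAP B-ALL 1 to 4, against 0.03, -1.41, 0.05 and 0.19 in LAP preB-ALL 1 to 4 (probe set with the largest spread). In this probe set LAP B-ALL 4 lay at the level of tumours without the transgene, which were between -4.50 and -1.94. The other 2 probe sets did not set it apart in this way. It was at -0.36 in 1, with LAP preB-ALL 1 at -0.43 and the tumours without the transgene between -1.38 and 1.38. In the other it was at -0.37, against -0.32 to 0.15 in the tumours without the transgene. The exact permutation p of the group difference was 0.971 (two-sided) for the Cebpb probe set with the largest spread. It was 0.4 and 0.6 for the other 2 Cebpb probe sets and 0.914 for Blnk. Each was 0.971 after adjustment over 4 tests, where the smallest p this design allows is 0.0286. The sources used here do not say which part of Cebpb the probe sets and the transgene cover, and no label was changed. Markers of other cells stood with these tumours, and the median of the erythroid and platelet markers was 4.04, 4.03, 4.89 and 0.03 in LAP B-ALL 1 to 4, against -0.34, -0.15, -0.04 and 4.53 in LAP preB-ALL 1 to 4. Results are given with all 4 tumours of each group, and many of them also without both tumours numbered 4, a choice made after their values were seen.

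**Figure D1:**
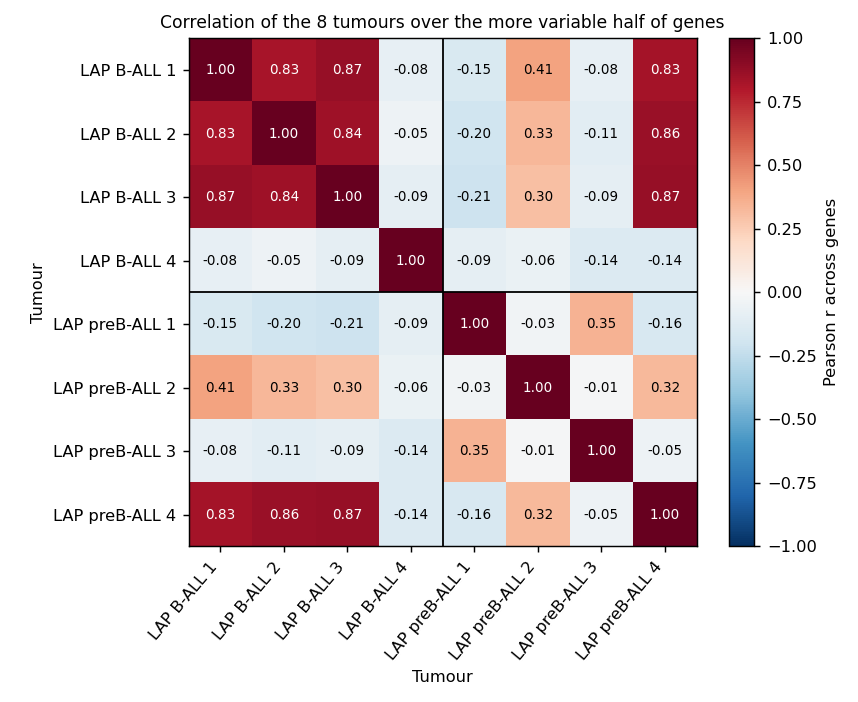
Pearson correlation across 8548 genes between the 4 LAP B-ALL (left and top) and the 4 LAP preB-ALL (right and bottom), colour and number giving r. The tumour labelled LAP preB-ALL 4 stands with LAP B-ALL 1 to 3 at r of 0.83 to 0.87, and the tumour labelled LAP B-ALL 4 stands with none of the other 7.

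Without both tumours numbered 4, 1153 genes passed (6.74%), 794 higher in LAP B-ALL (4.64%) and 359 lower (2.10%), and 44.4% of all genes had a positive difference. The 2 tumours were left out after their values were seen, so these calls describe the remaining 6 tumours and do not stand in for the comparison of 4 with 4. Without the tumour labelled LAP preB-ALL 4 alone 291 genes passed, all of them among the 1153, and without the tumour labelled LAP B-ALL 4 alone 5 did, all higher in LAP B-ALL. Of the 1153, 105 also did not overlap among all 8 tumours, as 890 of all 17097 genes did not (5.21%). The 1153 were chosen on 6 of these 8 tumours, so the 105 are not separate support. The tumour labelled LAP preB-ALL 4 lay nearer to the mean of LAP B-ALL 1 to 3 than to that of LAP preB-ALL 1 to 3 in 1046 of the 1153 (90.7%). The tumour labelled LAP B-ALL 4 did so in 332 (28.8%). The genes were chosen by the other 6 tumours, and both shares describe where the left-out tumours lie.

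The sequences before Vpreb1 and Vpreb2 are shown because the surrogate light chain divided the tumours and its genes are near copies of each other. Vpreb1 and Vpreb2, on chromosome 16, share a stretch of 106 bases in which 104 are identical (98.1%) and 2 differ. It lies directly before the start of Vpreb1 (chr16:16869256-16869361, minus strand) and 250 to 145 bases before that of Vpreb2 (chr16:17980315-17980420, plus strand), in RefSeq annotation of GRCm38.p6. Only the 250 bases before each start were compared. The stretch is cut at the Vpreb1 start and at the far edge of the Vpreb2 window, so its full extent is not known. Capitals mark CAGGTG, an E-box of the kind bound by the E proteins of early B cells, searched on both strands. It is in 7.44% of 32851 windows of the same length directly before gene starts. The Vpreb1 stretch has that position, and the Vpreb2 stretch lies further from its start.
Vpreb1: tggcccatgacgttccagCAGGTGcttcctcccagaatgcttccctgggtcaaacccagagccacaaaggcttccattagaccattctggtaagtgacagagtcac
Vpreb2: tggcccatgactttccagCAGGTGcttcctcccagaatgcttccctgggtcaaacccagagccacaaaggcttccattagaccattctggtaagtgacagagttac
The Vpreb2 probe set has the suffix of sets that can read several transcripts, so a Vpreb2 value may come from Vpreb1 and is uncertain. No transcript or probe sequence was compared, and the stretch shown lies before the starts.

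The 200 bases before the starts of 3 erythroid genes are shown because red cell genes set the same tumours apart by several units. They are Alas2 (chrX:150547217-150547416, plus strand), Klf1 (chr8:84901782-84901981, plus strand) and Hba-a1 (chr11:32283472-32283671, plus strand). Capitals mark GATAA on either strand (TTATC on the strand shown), a core of the sites read by the erythroid factor GATA-1, found in 18.1% of 32851 windows of 200 bases before gene starts. A match is a description of the letters and not a bound site.
Alas2: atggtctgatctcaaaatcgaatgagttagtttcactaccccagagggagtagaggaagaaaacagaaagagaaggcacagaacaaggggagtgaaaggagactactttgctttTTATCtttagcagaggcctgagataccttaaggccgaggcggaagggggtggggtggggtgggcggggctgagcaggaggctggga
Klf1: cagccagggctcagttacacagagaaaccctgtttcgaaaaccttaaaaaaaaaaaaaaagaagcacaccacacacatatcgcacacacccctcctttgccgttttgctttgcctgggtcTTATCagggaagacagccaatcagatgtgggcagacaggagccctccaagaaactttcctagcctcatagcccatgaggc
Hba-a1: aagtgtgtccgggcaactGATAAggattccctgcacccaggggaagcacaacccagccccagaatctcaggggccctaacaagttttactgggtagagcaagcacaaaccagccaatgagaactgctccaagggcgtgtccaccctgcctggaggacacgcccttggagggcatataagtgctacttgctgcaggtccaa

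Surrogate light chain genes split the tumours across the labels. Vpreb1 was at -8.84, -8.78, -8.97 and 0.14 in LAP B-ALL 1 to 4, against -0.11, -8.49, 0.01 and -8.89 in LAP preB-ALL 1 to 4. It was thus far below the tumour median in 5 tumours, namely LAP B-ALL 1 to 3 and the tumours labelled LAP preB-ALL 2 and 4, and near the median in the other 3. All 8 LAP/Blnk and Blnk tumours lay between -0.45 and 0.35. The group difference was -2.24 ± 2.23 (SE, adjusted p = 0.724) and the groups overlapped. Vpreb3, a further VpreB family gene, was at -5.27, -4.35, -6.54 and 0.88 in LAP B-ALL 1 to 4, against -0.14, -2.85, 0.32 and -4.92 in LAP preB-ALL 1 to 4, with the same 5 tumours low and a difference of -1.92 ± 1.36 (SE, adjusted p = 0.607). Vpreb2 had the same split into 5 low tumours and 3 others, with a difference of -1.87 ± 2.12 (SE, adjusted p = 0.765). After leaving out both tumours numbered 4, the differences were -6.00 (adjusted p = 0.04996) for Vpreb1, -4.50 (adjusted p = 0.00283) for Vpreb3 and -5.37 (adjusted p = 0.0711) for Vpreb2. Vpreb1 and Vpreb3 thus fell in LAP B-ALL 1 to 3 relative to LAP preB-ALL 1 to 3, although Vpreb1 was close to their level in LAP preB-ALL 2.

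The other measured parts of the receptor had smaller differences. Cd79b, a signalling chain of the pre-B and B-cell receptor, was at 0.14, 0.40, -0.46 and 0.95 in LAP B-ALL 1 to 4, against -1.30, 0.06, -1.05 and -0.86 in LAP preB-ALL 1 to 4. LAP B-ALL 4 was highest and the groups overlapped through LAP B-ALL 3 and LAP preB-ALL 2 (1.05 ± 0.31 SE, adjusted p = 0.35). Cd79a, the other chain, differed by 0.52, and Ighm, the mu heavy chain, by -0.52. Of the 6 measured genes of this list, 2 had a positive and 4 a negative difference, with a median of -1.20, and -2.69 without both tumours numbered 4. Igll1, the λ5 chain, had no value here. As a check of lineage, Pax5, which keeps B-cell identity, was at 0.003, -0.12, -0.67 and 0.54 in LAP B-ALL 1 to 4, against -0.27, 0.12, -1.29 and -0.89 in LAP preB-ALL 1 to 4, and Ptprc (CD45) differed by 0.61. The ratios show no level, so the presence of B cells in a tumour is not shown by them.

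**Figure D2:**
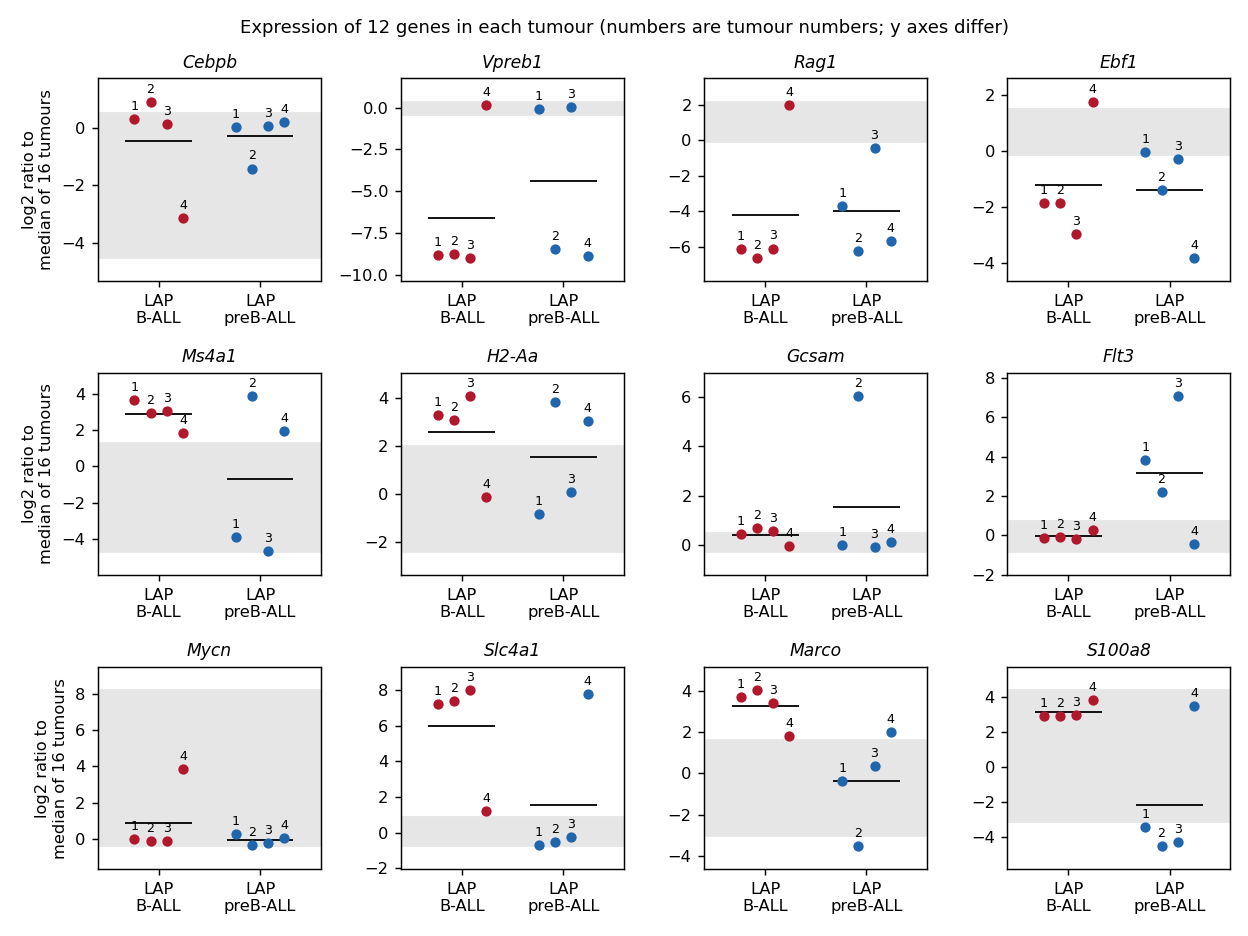
Log2 ratio to the median of the 16 tumours for 12 genes in the 4 LAP B-ALL (red, left) and the 4 LAP preB-ALL (blue, right), each point labelled with its tumour number, a line at the group mean and a grey band over the range of the 8 LAP/Blnk and Blnk tumours. In several panels a tumour numbered 4 lies apart from its group, for example Vpreb1 at 0.14 in LAP B-ALL 4 and -8.89 in LAP preB-ALL 4.

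The recombinase genes had an order of tumours close to that of the surrogate light chain. Rag1, a subunit of the recombinase, was at -6.13, -6.62, -6.11 and 2.00 in LAP B-ALL 1 to 4, against -3.71, -6.24, -0.41 and -5.66 in LAP preB-ALL 1 to 4. LAP B-ALL 4 was the highest of the 8 and LAP B-ALL 1 to 3 were among the lowest, together with the tumours labelled LAP preB-ALL 2 and 4. Rag2, the partner subunit, was at -3.91, -3.99, -3.79 and 2.13 in LAP B-ALL 1 to 4, against -1.92, -3.74, -0.64 and -3.89 in LAP preB-ALL 1 to 4. The group differences were -0.21 ± 1.66 (SE, adjusted p = 0.974) and 0.16 ± 1.19 (SE, adjusted p = 0.974). Dntt, which adds untemplated bases at the joints, differed by -0.56 and Lig4, the ligase of end joining, by 1.58 ± 0.63 (SE, adjusted p = 0.409). The list had 7 of 13 positive differences and a median of 0.05. In the fit without both tumours numbered 4, Hmgb1, a cofactor of RAG cleavage, was the only one of the 13 to pass. It fell by 0.63 in LAP B-ALL (adjusted p = 0.00258), where 2.10% of all genes fell past the threshold.

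Several progenitor and pro-B genes were low in LAP B-ALL 1 to 3 and in LAP preB-ALL 2 and 4. Enpep, the BP-1 antigen of pre-B cells, was at -7.11, -6.84, -6.64 and 1.61 in LAP B-ALL 1 to 4, against -0.06, -6.83, -4.73 and -6.85 in LAP preB-ALL 1 to 4. Sox4, a factor of early B-cell development, was at -4.31, -4.80, -4.56 and 1.13 in LAP B-ALL 1 to 4, against -0.35, -6.35, 0.18 and -5.09 in LAP preB-ALL 1 to 4. Both genes were high in LAP B-ALL 4 and low in LAP B-ALL 1 to 3 and in the tumours labelled LAP preB-ALL 2 and 4, and Enpep was low in LAP preB-ALL 3 as well. Flt3, a receptor tyrosine kinase of lymphoid progenitors, had a pattern of its own at -0.15, -0.10, -0.21 and 0.25 in LAP B-ALL 1 to 4, against 3.85, 2.18, 7.09 and -0.42 in LAP preB-ALL 1 to 4. Only LAP preB-ALL 1 to 3 were high, and the highest value of the LAP/Blnk and Blnk tumours was 0.70. Its group difference was -3.23 ± 1.07 (SE, adjusted p = 0.36) with all 8 tumours and -4.52 (adjusted p = 0.0104) without both tumours numbered 4. The list had 12 of 24 positive differences, a median of -0.02 and, without both tumours, -0.43.

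Genes of immature and mature B cells lay mostly higher in LAP B-ALL. Of the 34 measured, 30 had a positive difference against 43.9% of all genes, with a median of 0.62. None passed the test, and 6 had an unadjusted p under 0.05 in the higher direction (5.46% of all genes did). Ms4a1, which encodes CD20, was at 3.68, 2.96, 3.06 and 1.85 in LAP B-ALL 1 to 4, against -3.87, 3.87, -4.67 and 1.94 in LAP preB-ALL 1 to 4. Values were high in 6 tumours and low in LAP preB-ALL 1 and 3, with a difference of 3.57 ± 1.74 (SE, adjusted p = 0.47). Cd72, an inhibitory co-receptor of B cells, was at 1.54, 1.75, 1.02 and 0.36 in LAP B-ALL 1 to 4, against -2.44, -0.48, -3.54 and 1.97 in LAP preB-ALL 1 to 4, where LAP preB-ALL 4 was the highest of all (2.29 ± 0.87 SE, adjusted p = 0.392). Ly6d, a surface marker of B-lineage commitment, differed by 2.32 ± 1.18 (SE, adjusted p = 0.481), and Ltb, lymphotoxin beta, by 1.82 ± 0.95 (SE, adjusted p = 0.496). S1pr1, the receptor for sphingosine 1-phosphate that guides lymphocytes out of tissue, was at 0.21, 1.93, 0.16 and 1.19 in LAP B-ALL 1 to 4, against -1.09, -0.59, -1.09 and 0.13 in LAP preB-ALL 1 to 4. Its groups did not overlap, with LAP B-ALL 3 just above LAP preB-ALL 4. The median of the list without both tumours numbered 4 was 1.06, and 5 of the 34 genes rose past the threshold (4.64% of all genes did). Among them were Cd72 by 3.59 (adjusted p = 0.00591) and Lmo2 by 2.16 (adjusted p = 0.000984).

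MHC class II genes were high in 5 tumours of both groups. H2-Aa, a class II alpha chain, was at 3.29, 3.10, 4.09 and -0.10 in LAP B-ALL 1 to 4, against -0.80, 3.85, 0.10 and 3.04 in LAP preB-ALL 1 to 4. Cd74, the invariant chain, was at 2.92, 2.34, 3.13 and 1.30 in LAP B-ALL 1 to 4, against -0.33, 2.61, -0.18 and 2.54 in LAP preB-ALL 1 to 4. LAP B-ALL 1 to 3 and the tumours labelled LAP preB-ALL 2 and 4 were high, and LAP B-ALL 4 was near the tumour median in H2-Aa and in Ciita, the class II transactivator (-0.10). Of the 13 genes 10 had a positive difference, with a median of 0.65, and none passed with or without both tumours numbered 4. H2-Ob, a chain of the peptide-editing molecule H2-O, differed by 1.18, and H2-Eb2, a class II beta chain, by -0.77, where LAP preB-ALL 2 stood alone at 2.65.

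Receptor signalling genes held 2 members whose groups did not overlap, Syk and Prkcb (1.83% of all genes did so in this direction). Syk, the kinase that binds the receptor, was at 1.03, 0.94, 0.03 and 0.41 in LAP B-ALL 1 to 4, against -0.95, 0.002, -1.49 and -0.36 in LAP preB-ALL 1 to 4. All LAP B-ALL lay above all LAP preB-ALL, with LAP B-ALL 3 just above LAP preB-ALL 2, and the difference was 1.30 ± 0.28 (SE, adjusted p = 0.31). Prkcb, protein kinase C beta, was at 0.57, 0.61, 0.12 and 1.08 in LAP B-ALL 1 to 4, against -0.73, 0.11, -0.85 and -0.04 in LAP preB-ALL 1 to 4 and differed by 0.97 ± 0.33 (SE, adjusted p = 0.367). Blk, a Src-family kinase of B cells, was at 3.20, 3.36, 2.79 and 2.36 in LAP B-ALL 1 to 4, against -1.21, 2.99, -1.28 and 2.92 in LAP preB-ALL 1 to 4, with 6 tumours high and LAP preB-ALL 1 and 3 low. Dok3, an adaptor that limits receptor signals, differed by 1.41 ± 0.47 (SE, adjusted p = 0.353). Of the 21 measured genes 15 lay higher in LAP B-ALL (median 0.25). Without both tumours numbered 4, 2 of the 21 rose past the threshold (4.64% of all genes did). These were Syk by 1.48 (adjusted p = 0.0216) and Dok3 by 1.96 (adjusted p = 0.0116). Without LAP preB-ALL 2 alone the median of the list was 0.60.

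Among B-lineage transcription factors, 24 of 30 had a positive difference, with a median of 0.28. This shift was not kept without both tumours numbered 4, where 17 were positive and 13 negative, with a median of 0.05. Id3, which blocks E proteins, was at -0.16, 0.11, -0.50 and 0.60 in LAP B-ALL 1 to 4, against -2.13, -3.36, -2.14 and -1.05 in LAP preB-ALL 1 to 4. All 4 LAP B-ALL lay above all 4 LAP preB-ALL, at or near the tumour median, and LAP preB-ALL 1 to 4 lay well below it. The difference was 2.18 ± 0.43 (SE, adjusted p = 0.294), and 2.36 (adjusted p = 0.00429) without both tumours numbered 4. Klf2, a factor of lymphocyte quiescence and trafficking, was at 1.46, 2.82, 1.54 and 1.64 in LAP B-ALL 1 to 4, against -1.41, 0.67, -1.91 and 1.09 in LAP preB-ALL 1 to 4, also without overlap (2.25 ± 0.59 SE, adjusted p = 0.345). Spib, an Ets factor of mature B cells, differed by 1.62 ± 0.66 (SE, adjusted p = 0.416), and Zeb2 by 0.99 ± 0.31 (SE, adjusted p = 0.35). Ebf1, a factor that specifies B cells, was at -1.87, -1.85, -2.97 and 1.76 in LAP B-ALL 1 to 4, against -0.05, -1.40, -0.29 and -3.81 in LAP preB-ALL 1 to 4. Its highest value was in LAP B-ALL 4 and its lowest in the tumour labelled LAP preB-ALL 4, so its difference was 0.16 with all 8 tumours and -1.65 (adjusted p = 0.0442) without these 2. Irf4, an inducer of light chain rearrangement, differed by 0.32 and was highest in LAP preB-ALL 2 at 1.32.

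Values did not overlap between the 2 groups in 890 genes (5.21%), 313 higher in LAP B-ALL (1.83%) and 577 lower (3.37%). Of these, 52 were at least 2-fold higher (0.304%) and 16 at least 2-fold lower (0.0936%). After leaving out unnamed, noncoding and rearranged ones, 768 of the 890 remained. None of them passed the adjusted test, so they are given as values. The 10 with the largest difference in each direction and an unadjusted p under 0.05 are given next.

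Among the higher genes were several known from macrophages, whose marker list is given further on. Adgre4, an adhesion receptor of macrophages, was at 2.72, 2.87, 3.23 and 1.85 in LAP B-ALL 1 to 4, against -1.27, -1.03, -2.22 and 0.87 in LAP preB-ALL 1 to 4, and differed by 3.58 ± 0.88 (SE, adjusted p = 0.345). Cd36, a scavenger receptor for lipids, was at 1.44, 1.23, 0.91 and 0.97 in LAP B-ALL 1 to 4, against -0.21, -4.96, -0.45 and 0.49 in LAP preB-ALL 1 to 4, with LAP preB-ALL 2 far below the rest (2.42 ± 0.96 SE, adjusted p = 0.405). Fcna, a ficolin of spleen and liver macrophages, differed by 2.23 ± 0.52 (SE, adjusted p = 0.319). Hpgd, which inactivates prostaglandins, was at 1.16, 1.86, 2.88 and 1.71 in LAP B-ALL 1 to 4, against -1.43, -2.55, -2.32 and 0.79 in LAP preB-ALL 1 to 4. Its lowest LAP B-ALL value and its highest LAP preB-ALL value were 1.16 and 0.79, and the difference was 3.28 ± 0.73 (SE, adjusted p = 0.31). Cmah, which makes the sialic acid Neu5Gc, differed by 2.71 ± 0.75 (SE, adjusted p = 0.35). Adgre5, the adhesion receptor CD97, differed by 2.11, Gas7, a cytoskeletal adaptor, by 2.03 and Serinc5, a membrane protein, by 2.02. In all 10 of these genes, Klf2 and Id3 included, the tumour labelled LAP preB-ALL 4 was the highest of its group.

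The lower genes included the membrane protein embigin and enzymes of metabolism. Emb, which escorts monocarboxylate transporters to the membrane, was at -1.88, -2.11, -1.70 and -1.82 in LAP B-ALL 1 to 4, against 2.40, -0.42, 2.99 and -1.40 in LAP preB-ALL 1 to 4, with a difference of -2.77 ± 0.77 (SE, adjusted p = 0.35). Lrp8, a receptor for apolipoprotein E and reelin, was at -0.21, -0.68, -0.61 and -0.39 in LAP B-ALL 1 to 4, against 1.61, 1.17, 1.00 and -0.03 in LAP preB-ALL 1 to 4 and differed by -1.41 ± 0.31 (SE, adjusted p = 0.31). In both genes the tumour labelled LAP preB-ALL 4 was nearest to LAP B-ALL. Pdk1, the kinase that shuts pyruvate dehydrogenase, was at -0.97, -0.83, -0.82 and -0.54 in LAP B-ALL 1 to 4, against 0.78, 0.35, 0.32 and 0.24 in LAP preB-ALL 1 to 4. Its groups lay clearly apart, and the difference was -1.22 ± 0.25 (SE, adjusted p = 0.294). Bmp2k, a kinase, differed by -1.11 ± 0.27 (SE, adjusted p = 0.345) and Hells, a chromatin remodeller, by -1.04 ± 0.35 (SE, adjusted p = 0.36). Mta3, a subunit of the NuRD complex, differed by -1.22, Rcc1l, a mitochondrial protein, by -1.14, Ier5l by -1.10 and Pdxk, the pyridoxal kinase, by -1.02.

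**Figure D3:**
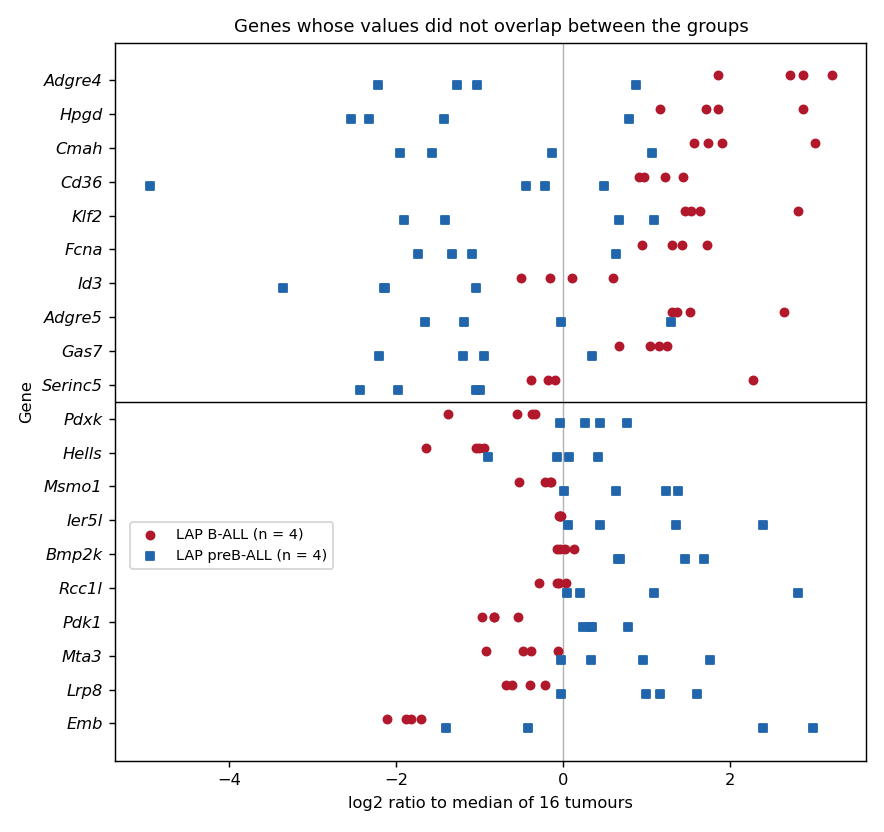
Log2 ratio to the median of the 16 tumours for the 20 genes with the largest differences among those without overlap and with an unadjusted p under 0.05, LAP B-ALL as red circles above LAP preB-ALL as blue squares in each row, with the 10 higher genes over the 10 lower ones. The 4 LAP B-ALL of Pdk1 sit between -0.97 and -0.54 and its 4 LAP preB-ALL between 0.24 and 0.78.

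Cholesterol biosynthesis genes lay lower in LAP B-ALL, with 0 of 16 positive differences against 43.9% of all genes. The median difference was -0.40, 7 genes had an unadjusted p under 0.05 (5.56% of all genes in that direction) and 0 passed. Cyp51, the lanosterol demethylase, was at -0.29, -0.49, -0.81 and -0.45 in LAP B-ALL 1 to 4, against 1.37, 1.85, 0.88 and -0.42 in LAP preB-ALL 1 to 4. LAP preB-ALL 1 to 3 were high, and the tumour labelled LAP preB-ALL 4 lay within LAP B-ALL (-1.43 ± 0.38 SE, adjusted p = 0.345). Sqle, squalene epoxidase, was at -1.04, -1.28, -1.24 and -0.96 in LAP B-ALL 1 to 4, against 1.01, 0.56, 0.61 and -1.07 in LAP preB-ALL 1 to 4, with the same split (-1.41 ± 0.37 SE, adjusted p = 0.345). Msmo1, which removes methyl groups from sterols, was at -0.16, -0.14, -0.53 and -0.22 in LAP B-ALL 1 to 4, against 1.38, 1.24, 0.63 and 0.01 in LAP preB-ALL 1 to 4, without overlap (-1.08 ± 0.30 SE, adjusted p = 0.35). Idi1, an isomerase of the isoprenoid steps, differed by -0.89 ± 0.37 (SE, adjusted p = 0.416), and Srebf2, the transcription factor of the pathway, by -0.89 ± 0.33 (SE, adjusted p = 0.387). The median without both tumours numbered 4 was -0.69, and 5 of the 16 genes fell past the threshold (2.10% of all genes did). These were Cyp51 at -1.90 (adjusted p = 0.00286), Sqle at -1.91 (adjusted p = 0.00119), Msmo1 at -1.36 (adjusted p = 0.0196), and the sterol enzymes Sc5d and Hsd17b7.

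Glycolysis and hypoxia genes had the same direction, with 18 of 19 negative differences and a median of -0.56. None passed, 8 had an unadjusted p under 0.05, all lower (5.56% of all genes), and 4 did not overlap between the groups (3.37% of all genes in that direction). Besides Pdk1 these were Car9, Gapdh and Egln3. Car9, a carbonic anhydrase of hypoxic cells, was at -0.19, -0.36, 0.02 and -0.31 in LAP B-ALL 1 to 4, against 0.66, 0.36, 0.94 and 0.04 in LAP preB-ALL 1 to 4. Gapdh, a glycolytic enzyme, differed by -0.40 ± 0.12 (SE, adjusted p = 0.35) and Egln3, an oxygen-sensing hydroxylase, by -0.65 ± 0.40 (SE, adjusted p = 0.557). Vegfa, the vascular growth factor, was at -2.13, -2.20, -1.90 and 1.23 in LAP B-ALL 1 to 4, against 0.37, -1.79, 1.87 and -1.94 in LAP preB-ALL 1 to 4. It was low in LAP B-ALL 1 to 3 and in the tumours labelled LAP preB-ALL 2 and 4, the same 5 as for Vpreb1. Bnip3, a mitophagy receptor, differed by -1.07 ± 0.62 (SE, adjusted p = 0.533). Hk1, the hexokinase of red cells among others, was the only gene in the other direction, at 1.43, 1.84, 2.20 and -0.08 in LAP B-ALL 1 to 4, against -0.001, -0.90, 0.11 and 1.99 in LAP preB-ALL 1 to 4. It was high in LAP B-ALL 1 to 3 and the tumour labelled LAP preB-ALL 4, the same 4 as the erythroid markers, whose part was not tested. When both tumours numbered 4 were left out, the median was -0.66. Of the 19 genes 6 fell past the threshold (2.10% of all genes did) and 1, Hk1, rose (4.64% of all genes did).

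**Figure D4:**
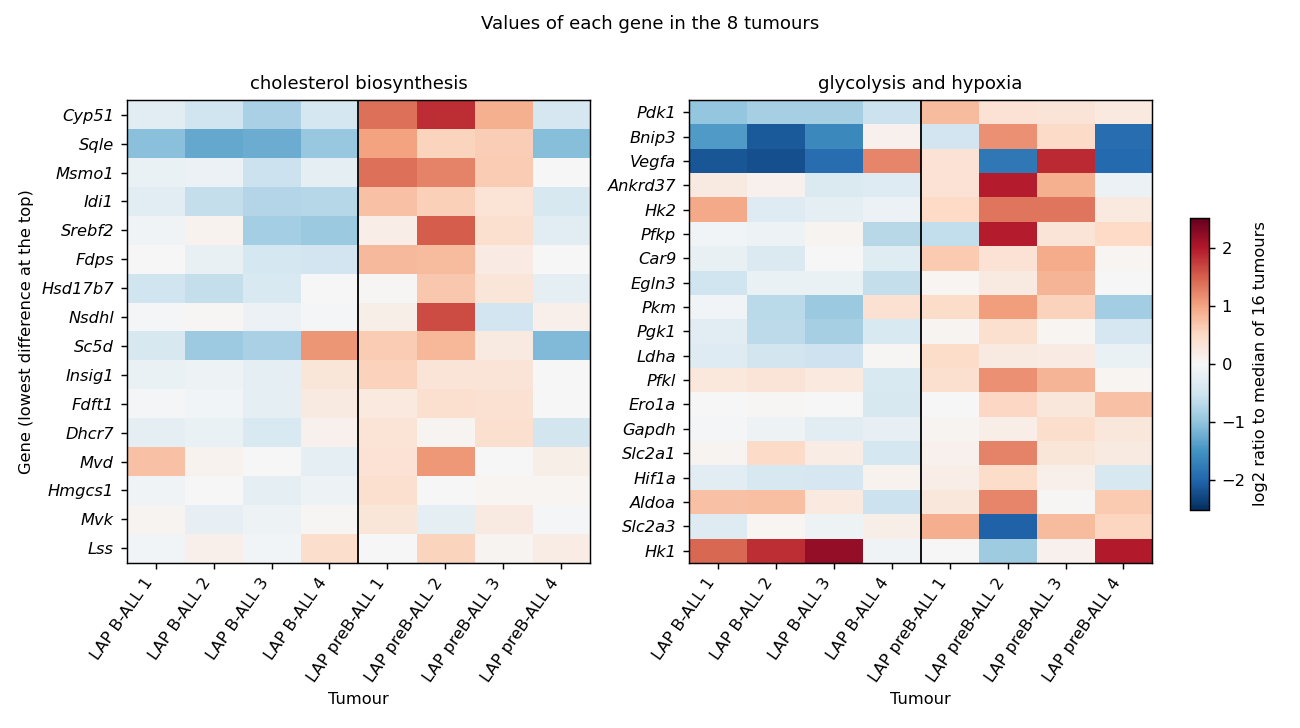
Log2 ratio to the median of the 16 tumours (colour) for 16 genes of cholesterol biosynthesis (left panel) and 19 of glycolysis and hypoxia (right panel) in the 4 LAP B-ALL and then the 4 LAP preB-ALL, with the lowest group difference at the top. Cyp51 is highest in LAP preB-ALL 1 to 3 (0.88 to 1.85), and Hk1 is at 1.43 to 2.20 in LAP B-ALL 1 to 3 and 1.99 in LAP preB-ALL 4.

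Ribosome biogenesis and replication genes lay slightly lower in LAP B-ALL. In the Myc and ribosome list 18 of 22 differences were negative, with a median of -0.44. Nop58, a core protein of small nucleolar particles, was at -0.36, -0.41, -0.59 and -0.19 in LAP B-ALL 1 to 4, against 0.45, 0.08, 0.52 and -0.12 in LAP preB-ALL 1 to 4, without overlap (-0.62 ± 0.19 SE, adjusted p = 0.35), as were Nop2, an rRNA methyltransferase (-0.77), and Dkc1, dyskerin (-0.51). These were 3 of 22, where 3.37% of all genes did not overlap in that direction. Myc, the driver of growth genes, was at -0.08, 0.10, -0.58 and 0.01 in LAP B-ALL 1 to 4, against 1.29, 0.06, 1.21 and -0.01 in LAP preB-ALL 1 to 4, where only LAP preB-ALL 1 and 3 stood out. Mxd1, which competes with Myc for its partner Max, was the largest in the other direction at 1.55 ± 0.62 (SE, adjusted p = 0.411). Mycn was near the median in 7 of the 8 tumours and at 3.88 in LAP B-ALL 4, and it reached 8.20 among the LAP/Blnk and Blnk tumours. DNA replication genes had 18 of 23 negative differences (median -0.24) and mitosis genes 16 of 23 (median -0.21). LAP B-ALL 4 was the lowest of the 8 tumours in both lists, at -0.46 and -0.53, and the mitosis median without both tumours numbered 4 was -0.06.

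Regulators of the G1 phase had differences in both directions, 11 positive and 10 negative, with a median of 0.08. E2f2, a transcription factor of the cycle that is also abundant in red cell precursors, was at 0.60, 0.67, 0.57 and 1.55 in LAP B-ALL 1 to 4, against -2.43, -2.20, -2.29 and 0.97 in LAP preB-ALL 1 to 4. All LAP B-ALL and the tumour labelled LAP preB-ALL 4 were high, and LAP preB-ALL 1 to 3 were low (2.33 ± 0.59 SE, adjusted p = 0.345). Rb1, the retinoblastoma protein, was at 1.08, 1.08, 1.21 and 0.55 in LAP B-ALL 1 to 4, against -1.27, -1.12, -1.94 and 1.05 in LAP preB-ALL 1 to 4, with the same split (1.80 ± 0.51 SE, adjusted p = 0.35). Cdk6, a D-cyclin kinase, was at 0.03, -1.85, -0.82 and -1.03 in LAP B-ALL 1 to 4, against 2.22, 0.28, 1.93 and -1.03 in LAP preB-ALL 1 to 4. It was highest in LAP preB-ALL 1 and 3 (-1.77 ± 0.73 SE, adjusted p = 0.419). Cdkn2a, which encodes p16 and p19 inhibitors, was at -2.47, -2.36, -1.21 and 3.61 in LAP B-ALL 1 to 4, against 3.64, 0.26, 3.51 and -1.84 in LAP preB-ALL 1 to 4. LAP B-ALL 4 shared its high level with LAP preB-ALL 1 and 3. Ccnd2, cyclin D2, differed by -0.51 and Ccnd1, cyclin D1, by -1.27. When both tumours numbered 4 were left out, 4 of the 21 genes rose past the threshold (4.64% of all genes did) and 2 fell (2.10%). Among them, E2f2 differed by 2.92 (adjusted p = 7.41e-06) and Cdkn2a by -4.48 (adjusted p = 0.0186).

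Markers of other blood cells differed widely between the tumours. In a bulk tumour, fewer cells of a type and less RNA per cell cannot be told apart. The part of these markers in the other differences was not tested, and with ratios alone no marker can be read as absent. The erythroid and platelet list, given above, was over 4 units up in LAP B-ALL 1 to 3 and the tumour labelled LAP preB-ALL 4 and near 0 in the other 4, and it lay between -0.28 and 0.28 in the LAP/Blnk and Blnk tumours. Slc4a1, the band 3 anion exchanger of red cells, was at 7.23, 7.39, 7.99 and 1.23 in LAP B-ALL 1 to 4, against -0.70, -0.55, -0.27 and 7.80 in LAP preB-ALL 1 to 4. Alas2, the first enzyme of haem synthesis in red cells, was at 5.87, 5.80, 6.65 and 2.14 in LAP B-ALL 1 to 4, against -1.04, -0.87, 0.36 and 5.98 in LAP preB-ALL 1 to 4. Klf1, an erythroid transcription factor, was at 5.32, 5.45, 6.54 and 0.01 in LAP B-ALL 1 to 4, against -0.44, 0.11, -0.35 and 5.83 in LAP preB-ALL 1 to 4. The differences with all 8 tumours were 4.39 ± 1.75 (SE, adjusted p = 0.408), 4.01 ± 1.32 (SE, adjusted p = 0.353) and 3.04 ± 1.40 (SE, adjusted p = 0.45). All 16 markers had a positive difference, with a median of 2.35 with all 8 tumours. Without both tumours numbered 4 all were positive with a median of 4.58. In that fit 13 rose past the threshold (4.64% of all genes did), Slc4a1 by 8.04 (adjusted p = 6.9e-08). Hba-a1, alpha globin, rose by 6.16 (adjusted p = 0.00204) in that fit, and its probe set can read the second alpha globin gene as well. The platelet genes Ppbp, a chemokine, and Gp1bb, a part of the receptor for von Willebrand factor, rose by 5.66 (adjusted p = 0.00113) and 2.70 (adjusted p = 0.000436).

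Granulocyte markers lay above the tumour median in all 4 LAP B-ALL. Their list median was 1.09, 1.01, 0.60 and 1.82 in LAP B-ALL 1 to 4, against -0.41, -0.43, -0.41 and 1.62 in LAP preB-ALL 1 to 4. S100a8, a calcium-binding protein of neutrophils, was at 2.90, 2.92, 2.95 and 3.85 in LAP B-ALL 1 to 4, against -3.43, -4.51, -4.27 and 3.48 in LAP preB-ALL 1 to 4. Its 4 LAP B-ALL values and the tumour labelled LAP preB-ALL 4 were high, and LAP preB-ALL 1 to 3 were far below the median (5.34 ± 1.78 SE, adjusted p = 0.36). S100a9, its partner, differed by 4.47 ± 1.66 (SE, adjusted p = 0.383) and Ngp, a granule protein, by 3.46 ± 1.34 (SE, adjusted p = 0.399). Of the 20 markers 19 had a positive difference. Without both tumours numbered 4, 3 of the 20 rose past the threshold (4.64% of all genes did), namely S100a8, S100a9 and Ngp. LAP/Blnk and Blnk tumours covered a range of -3.14 to 4.39 in S100a8.

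Of 22 monocyte and macrophage markers 21 had a positive difference, and the list median was 0.79, 1.05, 1.63 and 0.07 in LAP B-ALL 1 to 4, against -0.49, 0.32, -0.54 and 0.79 in LAP preB-ALL 1 to 4. Marco, a scavenger receptor of splenic marginal zone macrophages, was at 3.73, 4.04, 3.44 and 1.84 in LAP B-ALL 1 to 4, against -0.35, -3.53, 0.35 and 2.02 in LAP preB-ALL 1 to 4. It was high in LAP B-ALL 1 to 3, intermediate in both tumours numbered 4 and lowest in LAP preB-ALL 2 (3.64 ± 1.18 SE, adjusted p = 0.35). Adgre1, the surface protein by which mature macrophages are often stained, was at 1.27, 2.16, 2.72 and 0.25 in LAP B-ALL 1 to 4, against -2.24, -3.02, -1.37 and 1.31 in LAP preB-ALL 1 to 4 (2.93 ± 0.74 SE, adjusted p = 0.345). Spic, a factor of red pulp macrophages, differed by 1.81 ± 0.86 (SE, adjusted p = 0.46), and Mrc1, the mannose receptor, by 2.48 ± 0.97 (SE, adjusted p = 0.402). Leaving out both tumours numbered 4, these 4 genes, Cd14 and Hmox1 rose past the threshold, 6 of 22 in all (4.64% of all genes did).

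Lists of T, NK, dendritic and stromal cells had smaller median differences. The T-cell list had 13 of 17 positive differences (median 0.47), and Cd3g, a chain of the T-cell receptor complex, was at 3.74, 2.59, 4.25 and 0.18 in LAP B-ALL 1 to 4, against -1.03, 3.16, -0.80 and 3.54 in LAP preB-ALL 1 to 4. It was high in LAP B-ALL 1 to 3 and in the tumours labelled LAP preB-ALL 2 and 4. NK-cell markers had a median difference of 0.06, dendritic-cell markers 0.18 and stroma and endothelium markers 0.37. Gzmb, a granule protease of cytotoxic cells, was at 4.14, 2.94, 5.15 and -0.31 in LAP B-ALL 1 to 4, against -0.76, 3.34, -0.80 and 5.18 in LAP preB-ALL 1 to 4. Klrd1, a receptor chain of NK cells, went the other way by -1.91, and by -2.70 (adjusted p = 0.181) without both tumours numbered 4. The NK-cell list had 9 positive and 3 negative differences. Col3a1, a collagen of fibroblasts, differed by 1.07 and Dcn, a matrix protein, by -0.999. Without both tumours numbered 4 these 2 differences were 0.32 and -2.66 (adjusted p = 0.929 and 0.114). The stroma and endothelium list had 11 positive and 7 negative differences. Without both tumours numbered 4, Gzmb rose by 3.49 (adjusted p = 0.0397) and the chemokines Ccl17 and Ccl22 by 1.88 (adjusted p = 0.000194) and 1.85 (adjusted p = 0.00162). The dendritic-cell list then had 8 positive and 5 negative differences. Of its 13 genes 3 rose past the threshold (4.64% of all genes did), Ccl17, Ccl22 and Xcr1, a chemokine receptor. Only 1, Flt3, fell past it (2.10% of all genes did). The stroma median was 0.08 in that fit.

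**Figure D5:**
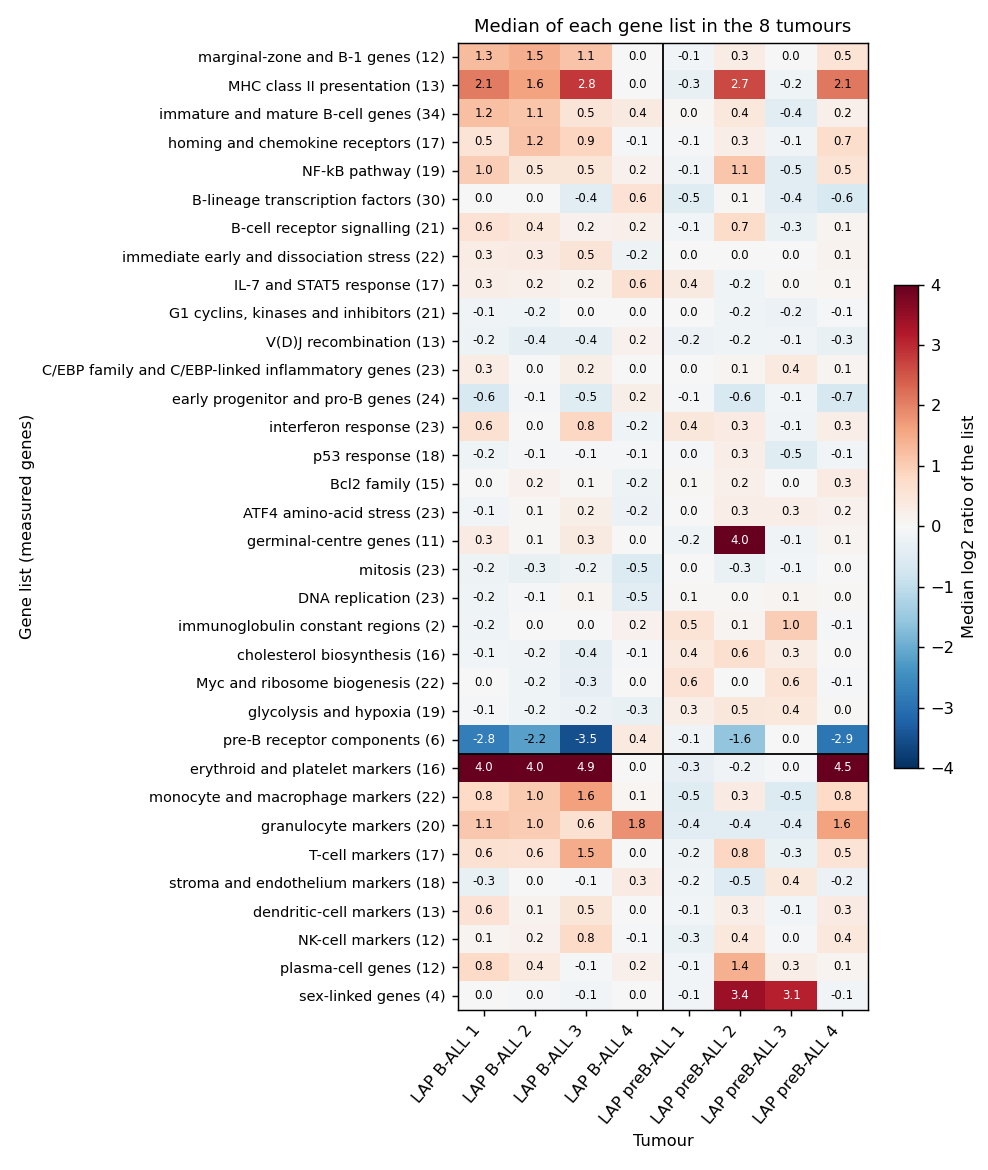
Median log2 ratio of each gene list (rows, with the number of measured genes) in the 4 LAP B-ALL and then the 4 LAP preB-ALL, process lists over lists of other cells and sex-linked genes, colours saturating at 4 units. The erythroid row is at 4.03 to 4.89 in LAP B-ALL 1 to 3 and 4.53 in LAP preB-ALL 4, and the germinal-centre row stands out only in LAP preB-ALL 2 (4.03).

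Several lists of activated and specialised B cells also lay higher in LAP B-ALL. Germinal-centre and plasma-cell genes did not, with 8 of 11 and 7 of 12 negative differences. The marginal-zone and B-1 list had 9 of 12 positive differences and a median of 0.69. Cd5, a marker of B-1 and T cells, was at 2.26, 3.44, 2.65 and -0.15 in LAP B-ALL 1 to 4, against 0.51, 0.77, -0.01 and 3.30 in LAP preB-ALL 1 to 4. Zbtb32, a repressor found in B-1 and memory B cells, was at 2.91, 4.15, 3.29 and -0.31 in LAP B-ALL 1 to 4, against 0.75, 1.29, -0.04 and 2.71 in LAP preB-ALL 1 to 4. Both were highest in LAP B-ALL 1 to 3 and in the tumour labelled LAP preB-ALL 4, where T-cell markers were high too. Without both tumours numbered 4 they rose by 2.36 (adjusted p = 0.00442) and 2.79 (adjusted p = 0.000383), with Ahr, the aryl hydrocarbon receptor, and Bhlhe41, a repressor of B-1 cells. In that fit 4 of the 12 genes rose past the threshold (4.64% of all genes did). Homing and chemokine receptors had 13 of 17 positive differences (median 0.53), and NF-kB genes 16 of 19 (median 0.31). Cd83, an activation marker of B and dendritic cells, was at 4.91, 3.89, 4.13 and 0.32 in LAP B-ALL 1 to 4, against -1.14, 4.68, -0.18 and 4.05 in LAP preB-ALL 1 to 4. The same 5 tumours were high as in MHC class II. Egr2, an immediate early factor, was at 3.67, 3.81, 3.61 and -0.18 in LAP B-ALL 1 to 4, against -0.20, 2.88, 0.16 and 3.43 in LAP preB-ALL 1 to 4, with the same 5 high. Of the 22 immediate early genes 2, Btg2, an antiproliferative gene, and Ier5, did not overlap (1.83% of all genes in that direction), with differences of 1.60 ± 0.48 (SE, adjusted p = 0.35) and 0.83 ± 0.24 (SE, adjusted p = 0.35), and the list median was 0.16.

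For the remaining lists the median difference was 0.08 for IL-7 and STAT5 response genes, -0.003 for the C/EBP family and inflammatory genes linked to it, and -0.05 for interferon response genes. It was -0.10 for the p53 response, -0.13 for the Bcl2 family, -0.17 for ATF4 amino-acid stress and -0.24 for plasma-cell genes. The immunoglobulin constant regions had only 2 measured genes (median -0.39). The sex-linked list is given last. Socs2, a feedback inhibitor of cytokine receptors, was at -3.90, -3.64, -3.64 and 1.97 in LAP B-ALL 1 to 4, against 1.16, -1.81, -0.34 and -2.48 in LAP preB-ALL 1 to 4, high in LAP B-ALL 4 and lowest in LAP B-ALL 1 to 3. Bcl2l1, the survival protein BCL-XL, which red cell precursors also use, differed by 1.33 ± 0.45 (SE, adjusted p = 0.361). Il6, an inflammatory cytokine, was at 0.23, -0.35, -0.31 and -0.23 in LAP B-ALL 1 to 4, against 4.05, -0.26, 1.38 and -0.22 in LAP preB-ALL 1 to 4, high in LAP preB-ALL 1 and 3 alone (-1.40 ± 0.68 SE, adjusted p = 0.469). Psat1, an enzyme of serine synthesis in the ATF4 list, differed by -1.06 ± 0.41 (SE, adjusted p = 0.398). The 2 largest members of that list went the other way, Ppp1r15a by 1.37 ± 0.80 (SE, adjusted p = 0.536) and Asns by 1.16 ± 0.80 (SE, adjusted p = 0.599). In that list 9 of 23 differences were positive and 14 negative. Interferon response genes went both ways, with 11 positive and 12 negative differences. Gbp2 differed by 1.29 ± 0.74 (SE, adjusted p = 0.527), Oasl1 by -1.12 ± 0.50 (SE, adjusted p = 0.439) and Ddx58 by 1.02 ± 0.37 (SE, adjusted p = 0.379). Mx1, of a family of antiviral GTPases but annotated as a transcribed pseudogene in the reference used, differed by -0.84.

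Without both tumours numbered 4 the largest higher genes were mostly of red cells. Apol11b, of the apolipoprotein L family, was at 8.59, 8.45, 9.25 and 0.15 in LAP B-ALL 1 to 4, against -0.08, -0.05, 0.20 and 9.04 in LAP preB-ALL 1 to 4, and rose by 8.74 (adjusted p = 6.78e-11). It was up in the same 4 tumours as the erythroid markers. Hemgn, an erythroid nuclear protein, rose by 7.81 (adjusted p = 3.99e-08) and Rhag, of the Rh complex, by 7.16 (adjusted p = 2.88e-09). After Vpreb1, Flt3, Vpreb3 and Cdkn2a, the largest falls were of Cdh17 and Bcat1. Cdh17, a cadherin, was at -0.10, -2.09, -1.13 and -1.13 in LAP B-ALL 1 to 4, against 5.45, -0.23, 4.84 and -1.14 in LAP preB-ALL 1 to 4. Bcat1, a branched-chain aminotransferase, was at -3.86, -5.50, -5.15 and -0.10 in LAP B-ALL 1 to 4, against 0.48, -2.31, 0.57 and -5.22 in LAP preB-ALL 1 to 4. Both were high in LAP preB-ALL 1 and 3 relative to LAP B-ALL 1 to 3. P2rx3, an ATP-gated channel, was at -0.55, -0.40, -0.56 and -0.15 in LAP B-ALL 1 to 4, against 3.43, 2.56, 4.02 and -0.24 in LAP preB-ALL 1 to 4. Sh2b2, an adaptor of receptor kinases, was at 0.02, -0.14, 0.12 and -0.05 in LAP B-ALL 1 to 4, against 1.72, 4.83, 4.46 and 0.03 in LAP preB-ALL 1 to 4. P2rx3 and Sh2b2 were up in LAP preB-ALL 1 to 3 only, as Flt3 was, and their highest values in LAP/Blnk and Blnk tumours were 1.01 and 0.63. They were named for their size in this fit, after their values were seen.

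The tumours also differed within each label. The tumour labelled LAP preB-ALL 2 had 203 genes at least 1 unit above all other 15 tumours and 129 at least 1 unit below, more than any of the other 7. Its germinal-centre list was at 4.03, against 0.33, 0.05, 0.34 and 0.01 in LAP B-ALL 1 to 4. Gcsam, a signalling protein of germinal-centre B cells, was at 0.42, 0.67, 0.56 and -0.06 in LAP B-ALL 1 to 4, against -0.02, 6.04, -0.07 and 0.12 in LAP preB-ALL 1 to 4. Rgs13, a regulator of G proteins in the same cells, was at 5.27, 4.69, 0.27 and 0.06 in LAP B-ALL 1 to 4, against -0.16, 8.83, -0.09 and 0.49 in LAP preB-ALL 1 to 4, and so was high in LAP B-ALL 1 and 2 as well. Bcl6, the master repressor of the germinal centre, was at 4.24 in LAP preB-ALL 2, and Jchain, which joins IgM and IgA units, at 6.08. The germinal-centre list had a median group difference of -0.20, and 8 of 11 members were negative. Without both tumours numbered 4 it was -0.81.

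LAP B-ALL 4 had 51 genes at least 1 unit above all other 15 tumours, led by Stac, a protein of calcium channels, at 5.18, and Zfp462, a zinc finger protein, at 3.94. LAP preB-ALL 1 was led by Cdh1, E-cadherin, at 8.27 and LAP preB-ALL 3 by Cox6a2, a subunit of cytochrome oxidase, at 4.71. Perp, a p53 target of cell adhesion, was at -0.10, -0.14, -0.11 and -0.16 in LAP B-ALL 1 to 4, against -0.04, -0.02, 4.95 and 0.03 in LAP preB-ALL 1 to 4. Its groups did not overlap, and LAP preB-ALL 3 stood far above the rest. The tumour labelled LAP preB-ALL 4 had 5 such genes only.

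Sex-linked genes set LAP preB-ALL 2 and 3 apart from the other 6. Xist, the RNA of the inactive X chromosome, was at 0.31, 0.56, 0.05 and 0.19 in LAP B-ALL 1 to 4, against 0.50, -6.75, -6.67 and 0.47 in LAP preB-ALL 1 to 4. Kdm5d, a Y-linked demethylase, was at -0.03, -0.01, -0.09 and -0.01 in LAP B-ALL 1 to 4, against -0.13, 3.47, 4.24 and -0.11 in LAP preB-ALL 1 to 4, and Uty and Eif2s3y were high in the same 2 tumours. The pattern of LAP preB-ALL 2 and 3 was thus in 0 of the 4 LAP B-ALL and in 2 of the 4 LAP preB-ALL, and the part of this imbalance in the other differences was not tested. The list of 4 sex-linked genes had a median difference of -1.82.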

How the data were processed

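Total RNA was measured on Affymetrix arrays, and the submitters' processing notes name MAS5. The deposited values, read here as log2, are log ratios that the authors had centred, since each of 45141 probe sets has a median of 0 over the 16 tumours, and the sources used here state neither the base of the logarithm nor the steps after MAS5. No intensity or detection call was used, so signal over background is unknown and precision is limited by the number of arrays. By the array's annotation table, 28898 probe sets had 1 symbol, 551 several and 15692 none, and 28689 matched a gene of GRCm38.p6. For each of 17097 genes the probe set with the largest SD over the 16 tumours was used. limma 3.58.1 in R 4.3.3 was fitted to all 16 tumours in 4 groups (12 residual degrees of freedom), tested on simulated data, with Benjamini-Hochberg adjustment over all genes and a threshold of 0.05. Cebpb and Blnk were also tested by an exact permutation test over the 8 tumours. Sequences are from RefSeq.

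Genes were named by rule: the Cebpb and Blnk probe sets, the 4 largest of each gene list, and a short list of B-cell genes. The rule also took the 10 largest non-overlapping differences in each direction with an unadjusted limma p under 0.05. Other list members, genes that stand out in 1 tumour and the largest differences without both tumours numbered 4 were added after their values were seen. The members and the 34 lists were chosen with earlier results of these data known. Replicate numbers 1 to 4 occur in both groups. Alternatives changed the samples in the fit, the probe set, the normalization, array weights, the variance prior, the gene filter, a replicate block and each tumour in turn, and, chosen after seeing the data, left out both tumours numbered 4.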

Additional observations from a re-analysis of the deposited data

Results flagged for a closer look

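Within each group of 4, the highest or lowest tumour was set against the gap to its nearest neighbour, and a gap above Dixon's critical value relative to the group's range picked out 39 values. The check was made on 150 named genes and 34 list medians in each of the 2 groups. Chance picks out about 1 in 20 groups, and the named genes move together, so the values are not 39 separate events.

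LAP B-ALL 4 stood apart in 18 of them. Its surrogate light chain and recombinase genes were above those of LAP B-ALL 1 to 3, with Vpreb1 at 0.14, Vpreb2 at 0.35, Rag1 at 2.00 and Rag2 at 2.13. It was also the highest of its group in Socs2 at 1.97, Vegfa at 1.23, Mycn at 3.88, Mxd4 at 1.70, Serinc5 at 2.28, Atp1b1, a subunit of the sodium pump, at 0.70, and Hmgb1 at -0.01. In the granulocyte genes S100a8 and S100a9 it was at 3.85 and 3.67, and in E2f2 at 1.55, above LAP B-ALL 1 to 3, which were high as well. It was the lowest of its group in Slc4a1 at 1.23, Bcl2a1a, a survival gene of the Bcl2 family, at -0.25, Egr2 at -0.18 and Mx1 at -0.43.

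LAP B-ALL 2 was the highest of its group in Klf2 at 2.82, Adgre5 at 2.66, Ddx58, a sensor of viral RNA, at 1.49 and Slc7a11, a cystine transporter, at 0.00. LAP B-ALL 3 was the lowest in Hells at -1.64.

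By contrast with LAP preB-ALL 1 to 3, the tumour labelled LAP preB-ALL 4 was high in 7 genes. These were Slc4a1 at 7.80, Car1, a carbonic anhydrase of red cells, at 6.82, S100a8 at 3.48, S100a9 at 3.39, Ngp at 3.53, E2f2 at 0.97 and Ccl17, a chemokine of dendritic cells, at 1.59. Its median of the erythroid and platelet markers was 4.53 and that of the granulocyte markers 1.62.

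The tumour labelled LAP preB-ALL 2 stood apart in Blnk at 1.45, Mybl1, a Myb-family factor of germinal-centre B cells, at 2.63, H2-Eb2 at 2.65 and Gcsam at 6.04, and its germinal-centre median was 4.03. It was the lowest of its group in Cebpb at -1.41. LAP preB-ALL 3 was the highest in Perp at 4.95.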

How the results depend on the processing

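The count of 0 genes past the threshold was obtained with limma under 9 further settings, with 991 to 1989 genes at an unadjusted p under 0.05 in them and in the fits that left out 1 of the other 6 tumours. Array weights gave 4 genes and leaving out 1 tumour gave 0 to 291, where 5 came without LAP B-ALL 4 and 291 without LAP preB-ALL 4. Leaving out both, chosen after seeing the data, gave 1153. Both groups share the numbers 1 to 4, and the fit with the replicate block gave 0 genes past the threshold and 991 under an unadjusted p of 0.05. Deviations of same-numbered tumours from their group means correlated at r of -0.29, 0.04, -0.25 and -0.65. Those means include both tumours numbered 4, so the values cannot say whether same-numbered tumours share a batch.

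Of 150 named genes, 56 passed without both tumours numbered 4 and 31 without LAP preB-ALL 4 alone. Over all 17097 genes, 1153 (6.74%) and 291 did. Many of the named genes were picked for large differences in these same tumours, so a larger share among them was built in. Of the differences that changed sign, the values without both were -4e-04 for Mycn, -0.063 for Ccnd3, -0.33 for Irf4, -1.65 for Ebf1, -1.80 for Rag2, 0.89 for Cebpb and 0.083 for Cenpf. Array weights gave -0.14 for Col3a1, -0.87 for Ebf1, -1.35 for Rag2 and 0.39 for Cebpb. The first probe set by name gave -0.030 for Ebf1, 0.66 for Cebpb and 0.27 for Socs2. The mean of all probe sets gave 0.14 for Cebpb, and quantile normalization gave 0.41 for Rag1.

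Leaving out 1 tumour at a time turned the sign of 11 genes. The range was -0.029 to 1.31 for Mycn, -0.066 to 0.85 for Ccnd3, -0.036 to 0.85 for Irf4, -0.84 to 0.74 for Ebf1 and -1.35 to 0.79 for Rag2. It was -0.35 to 0.25 for Blnk, -0.61 to 0.73 for Cebpb, -2.28 to 0.99 for Rag1, -1.52 to 0.025 for S1pr2, -1.65 to 0.39 for Gcsam and -2.48 to 0.063 for Jchain. A further Cebpb probe set ranged from -0.13 to 0.028.

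Medians of gene lists moved by more than their spread as follows. Without both tumours numbered 4 they were -0.21 for V(D)J recombination, -0.435 for early progenitor, 1.06 for mature B-cell, 1.42 for marginal-zone and B-1, -0.063 for G1, -0.060 for mitosis, 0.41 for interferon, 1.12 for homing, -0.69 for cholesterol and 1.93 for macrophage genes. Array weights gave -0.19 for V(D)J recombination, -0.47 for early progenitor, 1.10 for mature B-cell and -0.011 for stroma genes. The Bcl2 family was at 0.043 with the first probe set by name and 0.14 over the genes of larger spread, where immediate early genes were at 0.39. Leaving out 1 tumour gave -0.23 to 0.13 for V(D)J recombination, 0.099 to 0.69 for B-lineage transcription factors, 0.15 to 0.60 for receptor signalling, -0.080 to 0.081 for G1 and 0.064 to 0.46 for dendritic-cell genes. The cause of these shifts was not tested.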

Other observations

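Under array weights, the 4 genes past the threshold were all higher in LAP B-ALL. They were Pml by 1.73, Tcp11l2 by 2.09, Cdadc1 by 1.49 and Rp2 by 1.31, and the weights were lowest in LAP B-ALL 4 (0.376), LAP preB-ALL 2 (0.442) and LAP preB-ALL 4 (0.517). Without LAP B-ALL 4 alone, Zfp982 by 3.58, Nacc2 by 2.91, Fam169b by 1.47, Tcstv1 by 1.06 and Anks1b by 0.94 passed. These genes were named because few passed, after their values were seen.

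Tumours of 1 label were not uniformly alike. The median correlation was 0.39 over the 6 pairs within LAP B-ALL, -0.02 over the 6 pairs within LAP preB-ALL and -0.09 over the 16 pairs between the labels. The median SD per gene was 0.188 in LAP B-ALL and 0.237 in LAP preB-ALL (n = 4 each), against 0.157 in LAP/Blnk preB-ALL (n = 3) and 0.207 in Blnk preB-ALL (n = 5). Against the LAP/Blnk and Blnk tumours, LAP B-ALL 4 correlated at -0.07 to 0.28 and LAP preB-ALL 4 at -0.37 to 0.002.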
